A study of Mus musculus with 32 samples.

Results

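Ribosome-associated RNA of the mouse hippocampus was compared between Grik and CamK neurons, the first population against the second. The comparison was defined by sample labels and not by measured values: 4 Grik hippocampus libraries (replicates 3, 4, 5 and 6) were set against 4 CamK hippocampus libraries (replicates 2, 3, 4 and 5), which are 8 of the 32 libraries of the series. The series profiles genetically defined neuron classes of the forebrain to map the transcripts that each class engages with ribosomes. Its other groups are SST neurons of the hippocampus and Scnn, CamK, PV, SST and VIP neurons of the cortex, with 4 libraries each. All 8 hippocampal libraries compared here are labelled as wild-type genotype, Murine hippocampus tissue and ribosome-associated RNA, with no treatment, age or time given. The labels do not say that replicates came from separate animals, so p-values measure the spread between libraries, which may be partly technical. In the edgeR test this spread was estimated over all 32 libraries of the series, and not from the 8 compared libraries alone.

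The labels do not explain the names; in this field CamK marks excitatory neurons broadly across the forebrain through the promoter of a subunit of the calcium/calmodulin-dependent kinase. Grik marks, through the promoter of a kainate receptor subunit, excitatory neurons that in the hippocampus lie chiefly in area CA3. In such designs the promoter drives Cre recombinase, Cre switches on a tagged ribosomal protein in the marked cells, and the tagged ribosomes are pulled out of tissue lysate with the RNA attached to them. CA3 pyramidal cells receive the mossy fibres of dentate granule cells, excite each other through recurrent collaterals and send the Schaffer collaterals to area CA1. Kainate receptors are ionotropic glutamate receptors known for their role at the mossy fibre synapse. A CamK population can contain CA3 neurons as well, so the populations compared need not exclude each other. Because the libraries are bulk samples, fewer cells of a type and less RNA per cell cannot be told apart.

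The deposited table holds one row per feature with identifiers of the form GSMG plus digits, and does not pair them with gene names. Of these identifiers, 0 occurred in the reference tables used here. The labelled populations could therefore not be checked against marker genes, no list of genes (CA3, CA1, dentate, glial or receptor genes) could be applied, and no sequence could be attached to a feature. The populations are described through numbers of features, their levels, and 4 identifiers. Total expected counts were 107541048 to 110859184 in the Grik libraries and 105426513 to 110427088 in the CamK libraries.

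The Grik and CamK libraries formed separate groups. Spearman correlations of log2 CPM (read counts scaled to the library total) across the 24555 tested features were 0.978 to 0.983 among the 6 pairs of Grik libraries and 0.976 to 0.98 among the 6 pairs of CamK libraries. They were 0.955 to 0.964 in the 16 pairs that join a Grik with a CamK library, below every pair within a group. The first principal component of the 8 libraries held 44.4% of the variance, with the Grik libraries at 71.9 to 78.2 and the CamK libraries at -92.3 to -58.5. The second component (11.4%) mainly spread the CamK libraries, with replicates 2 and 3 at 78.3 and 28.3 and replicates 4 and 5 at -31.8 and -55.9. The Grik libraries lay between -24.8 and 5.5 on it.

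The number of features detected, the share of counts in the 100 most abundant features and the total count all overlapped between the populations. Grik libraries had 13785, 13870, 13846 and 13807 features at 1 CPM or more, against 13769, 13921, 13579 and 13849 in CamK libraries. The means were 13827 ± 38.2 in Grik and 13780 ± 147 in CamK (SD, n = 4 each; exact permutation test, two-sided p = 0.686, adjusted over 3 measures 0.686). The 100 most abundant features of a library took 23.33% ± 0.599 of the counts in Grik and 22.12% ± 0.974 in CamK (n = 4 each, exact permutation p = 0.0857, adjusted p = 0.257). Single libraries ran from 22.8% to 24.1% in Grik and from 21.1% to 23.4% in CamK. The share taken by the 1000 most abundant features, used in place of the 100 as an alternative, did not overlap between the populations, at 58.15% to 59.22% in Grik (58.46% ± 0.51) and 55.54% to 57.49% in CamK (56.37% ± 0.891; n = 4 each, exact permutation p = 0.0286, adjusted p = 0.0857 over 3 measures with this one in place of the 100). Total counts overlapped (exact permutation p = 0.371, adjusted p = 0.557). With 4 libraries against 4 the smallest p this test can give is 0.0286, and a single separated measure among 3 cannot go below an adjusted p of 0.0857.

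A feature was called different at a Benjamini-Hochberg adjusted p under 0.05 in edgeR's quasi-likelihood test and at least a 2-fold change. By this rule 1717 features were higher in Grik, which is 6.99% of those tested, and 1571 were lower, which is 6.4%, together 13.4%. Positive log2 fold changes mean higher in Grik throughout. The median log2 fold change was 1.98 among features called higher and -1.97 among those called lower, against 0.02 over all tested features, whose middle 50% ran from -0.38 to 0.48. With features at 0 counts in one population set to a floor of 3 counts over its 4 libraries, the medians of the called features were 1.96 and -1.95. The call rule used these same differences, so the sizes describe the calls and do not test them. A further 4800 features passed the adjusted p but differed by less than 2-fold, and 3195 differed by at least 2-fold without passing.

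**Figure D1:**
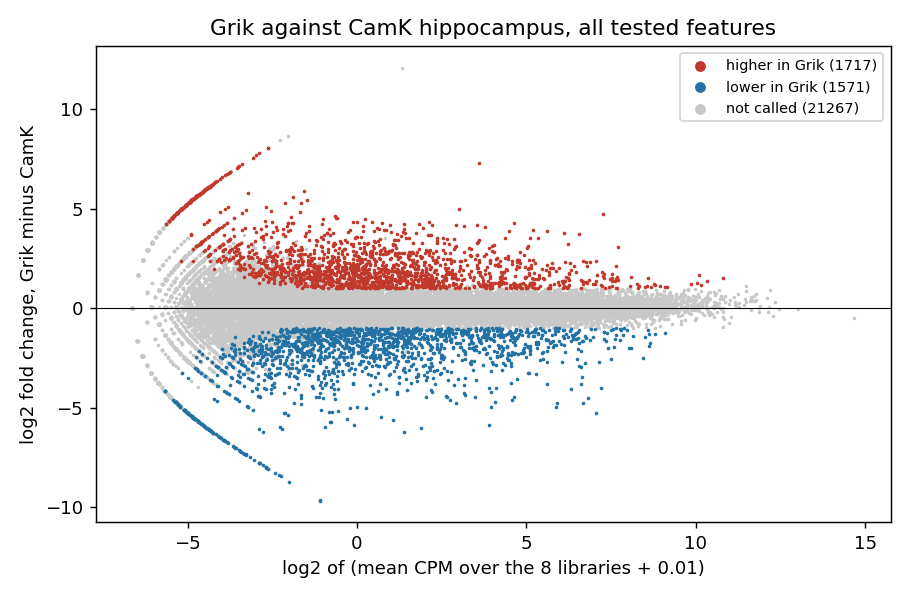
Each point is one of the 24555 tested features, with the log2 of its mean CPM over the 8 libraries (plus 0.01) on the horizontal axis and its fitted log2 fold change, Grik minus CamK, on the vertical axis. Features called higher in Grik (1717) and lower in Grik (1571) lie on both sides of 0 at nearly every level, and the curved strings at the left are features at or near 0 counts in one population, whose fitted fold depends on the prior count.

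Most of the calls were free of overlap between the populations, a property that the call rule favours. All 4 Grik libraries lay above all 4 CamK libraries in 1402 of the features called higher (81.7%), and all 4 lay below in 1297 of those called lower (82.6%). Over all tested features the libraries did not overlap in 31.1%, with Grik above in 16.4% and below in 14.7%. The lowest Grik library was at least 2-fold above the highest CamK library in 843 features called higher (49.1%), and the highest Grik library was at least 2-fold below the lowest CamK library in 777 features called lower (49.5%). Leaving out each of the 8 libraries in turn, 1199 of the features called higher (69.8%) and 1124 of those called lower (71.5%) passed in every one of the 8 fits.

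The share of features called depended on the level. It was 9.01% of 5271 features with a mean under 0.1 CPM over the 8 libraries, 21.2% of 5324 between 0.1 and 1 CPM, and 21.8% of 4986 between 1 and 10 CPM. It fell off to 7.37% of 6716 features between 10 and 100 CPM and 4.52% of 2258 at 100 CPM or more. The number of calls is thus carried by features of low or middle level. The abundant features were measured most precisely, with a median coefficient of variation among replicates of 7.09% in Grik and 7.65% in CamK at 100 CPM or more, against 38.8% in Grik and 43.7% in CamK between 0.1 and 1 CPM. Among features averaging at least 10 CPM, those called higher varied by a median of 10.6% in Grik and 15% in CamK, those called lower by 12.4% in Grik and 13.4% in CamK, and those not called by 8.15% in Grik and 8.63% in CamK.

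Very large differences leaned to the side of features lower in Grik. With at least 1 CPM in the population where the feature was higher, 1026 features were called higher in Grik and 935 lower. At 4-fold or more these were 383 higher and 349 lower, at 8-fold 119 higher and 125 lower, at 16-fold 25 higher and 49 lower, and at 32-fold 1 higher and 16 lower. With at least 10 CPM in that population the same counts were 344 higher and 376 lower at 2-fold, 34 higher and 43 lower at 8-fold, and 8 higher and 21 lower at 16-fold. At 16-fold and above, features lower in Grik were the larger side, while at 8-fold the sides were nearly even. No test of these counts is given, because the features were picked by the contrast they count.

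**Figure D2:**
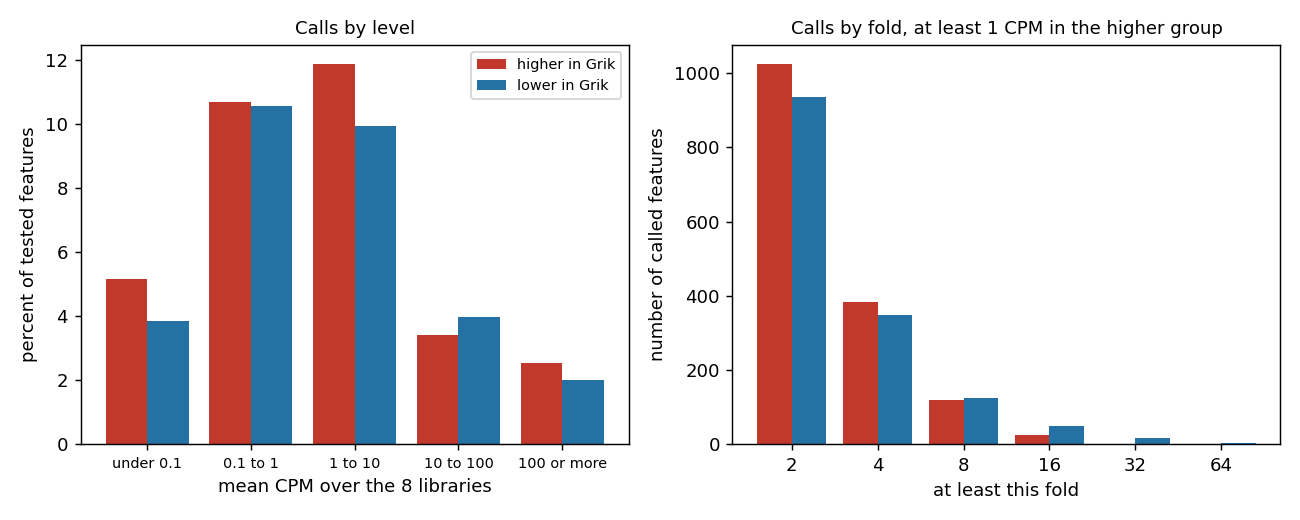
Left, the percent of tested features called higher (red) or lower (blue) in Grik within 5 ranges of mean CPM over the 8 libraries. Right, the number of called features that reach a given fold, among those with at least 1 CPM in the population where they are higher; at 16-fold and above the features lower in Grik outnumber those higher.

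The features with the largest folds, among called features with at least 5 CPM in the higher population and no overlap between libraries, are given here without identifiers. On the higher side the 5 largest log2 fold changes ran between 4.28 and 7.29. The most abundant of these 5 averaged 296 CPM in Grik libraries, against 11.2 CPM in CamK libraries, a difference of 4.73 on the log2 scale (SE 0.29). On the lower side the 5 largest ran between -6.23 and -4.98. The most abundant of these averaged 6.69 CPM in Grik libraries, against 259 CPM in CamK libraries, a difference of -5.27 (SE 0.25).

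Complete absence was limited to features of very low level. Among features called higher in Grik, 160 had 0 counts in all 4 CamK libraries, and among those called lower, 118 had 0 counts in all 4 Grik libraries. None of them averaged 1 CPM in the population that had them: the most abundant reached 0.306 CPM in Grik on the higher side and 0.927 CPM in CamK on the lower side. Against a floor of 3 counts over the 4 libraries, the largest bound on the higher side was at least 42.5-fold. On the lower side the largest was at least 123-fold lower in Grik. The median bound over such features was 6.61-fold on the higher side and 8.94-fold on the lower side. Every called feature of 1 CPM or more thus had counts in the other population.

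The called features made up a small part of all ribosome-associated RNA. Features called higher in Grik took 3.59%, 3.73%, 3.85% and 3.81% of the counts in Grik replicates 3 to 6, against 1.59%, 1.53%, 1.2% and 1.38% in CamK replicates 2 to 5. Features called lower took 0.859%, 0.908%, 0.893% and 0.908% in Grik replicates 3 to 6, against 2.86%, 2.94%, 3.06% and 3.03% in CamK replicates 2 to 5. In both lists the groups were far apart relative to the spread between replicates, as the selection requires. The gain was more concentrated than the loss. The 10 features with the largest differences in mean CPM carried 30.6% of the summed difference of the higher list, and 32 features carried 50% of it. On the lower side 10 features carried 18% and 52 features carried 50%. GSMG0038934 and GSMG0023431, described next, carried 6.62% and 4.39% of the summed difference of the higher list. GSMG0025291 and GSMG0021636 carried 2.32% and 2.17% of that of the lower list.

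The 4 identifiers given are those with the largest absolute differences in mean CPM in each direction among called features without overlap. A CPM value depends on the length of a feature, so levels are compared between groups for one feature and not between features. The TMM-normalised CPM of GSMG0038934 (deposited length 2095) were 2033, 2170, 2933 and 3565 in Grik replicates 3 to 6, against 1208, 1182, 688 and 658.3 in CamK replicates 2 to 5. Every Grik library lay above every CamK library, and CamK replicates 4 and 5 were lower than replicates 2 and 3, the same split as on the second component. The log2 fold change was 1.52 (SE 0.48, edgeR adjusted p = 0.0165). The call was lost without CamK replicate 4 (adjusted p = 0.0522), CamK replicate 5 (0.0549) or Grik replicate 6 (0.0504), each with a log2 fold change of at least 1.34, and the adjusted p ranged from 0.0169 to 0.0549 over the fits that left out 1 library.

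GSMG0023431 (length 1489) was at 1377, 1446, 1445 and 2422 CPM in Grik replicates 3 to 6, against 676.3, 606.9, 330.4 and 451 CPM in CamK replicates 2 to 5. Grik replicate 6 stood apart from the other Grik libraries, which were close together and still at least 2.04-fold above the highest CamK library. The log2 fold change was 1.70 (SE 0.49, edgeR adjusted p = 0.00843) and was called in every fit that left out a library of either population. Both features had higher means in the Scnn and interneuron groups than in Grik, and varied widely within several of these groups. GSMG0038934 averaged 45890 ± 33900 CPM in Scnn cortex, 26570 ± 7920 CPM in VIP cortex, 17130 ± 6770 CPM in SST hippocampus, 9420 ± 6460 CPM in SST cortex, 8036 ± 2320 CPM in PV cortex and 1771 ± 431 CPM in CamK cortex. GSMG0023431 averaged 22310 ± 13700 CPM in Scnn cortex, 16100 ± 4730 CPM in VIP cortex, 7489 ± 2690 CPM in SST hippocampus, 6384 ± 3090 CPM in PV cortex, 3831 ± 2460 CPM in SST cortex and 918.4 ± 397 CPM in CamK cortex (SD, n = 4 each). For GSMG0023431 SST cortex replicates 1 and 2, at 1487 and 1950 CPM, lay within the range of the Grik libraries. CamK cortex replicate 4 lay within the Grik range for both features, at 1475 CPM for GSMG0023431 and 2374 CPM for GSMG0038934.

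GSMG0025291 (length 1467) was lower in Grik, at 89.68, 116, 105.4 and 111 CPM in Grik replicates 3 to 6, against 559.3, 513.5, 740.1 and 565.1 CPM in CamK replicates 2 to 5. The lowest CamK library was 4.43-fold above the highest Grik library, and the spread within each population was small beside that gap. The log2 fold change was -2.49 (SE 0.10, edgeR adjusted p = 1.43e-18). Among the other groups it was higher in the excitatory populations of the cortex, averaging 270.6 ± 28 CPM in Scnn cortex and 241.2 ± 25.9 CPM in CamK cortex, than in the interneuron groups, whose means ran from 56.17 CPM in VIP cortex to 78.48 CPM in SST hippocampus. The Grik libraries, at 105.5 ± 11.4 CPM, lay between these levels without overlap on either side.

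GSMG0021636 (length 1801) was at 137.7, 158, 173.8 and 187.3 CPM in Grik replicates 3 to 6, against 463.7, 583.8, 837.6 and 603.8 CPM in CamK replicates 2 to 5. The populations did not overlap, with a gap of 2.48-fold between the nearest libraries. The log2 fold change was -1.92 (SE 0.21, edgeR adjusted p = 2.13e-08). It was likewise higher in the excitatory groups of the cortex, averaging 163.5 ± 15 CPM in the Scnn libraries and 263.4 ± 27 CPM in the CamK cortex libraries, than in the interneuron groups, with means from 12.02 CPM in PV cortex to 44.26 CPM in VIP cortex. Its level in Grik (164.2 ± 21.3 CPM) overlapped that in Scnn cortex.

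**Figure D3:**
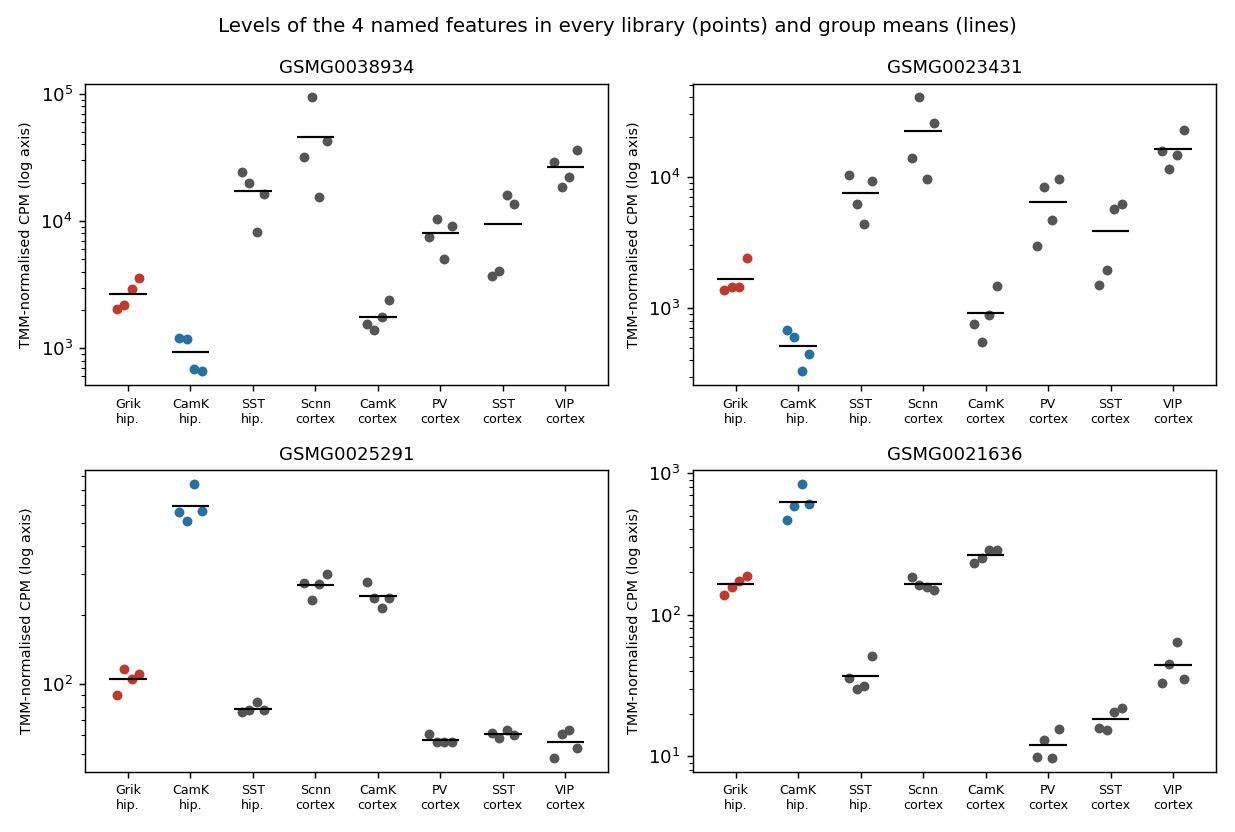
TMM-normalised CPM on a log axis for the 4 named features in all 8 groups of the series, one point per library, with lines at the group means (n = 4 each). The upper features are higher in Grik than in CamK hippocampus and have their highest means in Scnn and VIP cortex. SST cortex overlaps Grik for GSMG0023431, and CamK cortex overlaps Grik for both upper features. The lower features are highest in CamK hippocampus.

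The libraries of the other 6 groups are not in the contrast, although they share its filter, scaling and estimate of the spread. With the 8 compared libraries alone, 1301 of the 1717 features called higher and 1252 of the 1571 called lower were called again. For each called feature the mean log2 CPM of another group was placed beside the means of Grik and CamK hippocampus. By this measure CamK neurons of the cortex were the nearest group to CamK hippocampus in both lists. They were nearer to Grik in 540 of the 1717 features called higher (31.5%) and in 314 of the 1571 called lower (20%), against 42.7% of all tested features. SST neurons, which share the hippocampus with both populations, were nearer to Grik in 60.5% of the features called higher and 46.4% of those called lower, against 52.7% of all tested. VIP cortex was nearer to Grik in 68.9% of the features called higher and in 32% of those called lower, against 49% of all tested. The filter ran over all groups, so a feature of low level could be tested through its counts in the other group alone. These shares over all levels thus describe the lists and do not test them. Among features called higher with at least 10 CPM, the share nearer to Grik was 33% in VIP cortex and 30.9% in SST hippocampus.

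Among abundant features called higher, each other group was more often nearer to CamK. Of the 285 features called higher that averaged 10 CPM or more over the Grik and CamK libraries, each of the other 6 groups was nearer to Grik in no more than 33% (VIP cortex) and as little as 23.9% (CamK cortex). Over the 8974 tested features at that level these shares ran from 42.3% (Scnn cortex) to 51.3% (SST hippocampus). All 6 groups were nearer to CamK in 113 of the 285 features (39.6%), against 20.3% of the tested features at that level, and no group was nearer to CamK in 10 (3.51%), against 13.7%. Of the 312 abundant features called lower, the excitatory groups were again nearer to CamK hippocampus. The share nearer to Grik was 19.6% in CamK cortex and 30.1% in Scnn cortex, against 44.8% and 42.3% of the tested features at that level. All 6 groups were nearer to CamK in 76 of the 312 (24.4%), against 20.3%. In the interneuron groups the share nearer to Grik was 46.2% in SST cortex, 48.1% in VIP cortex, 54.2% in SST hippocampus and 56.4% in PV cortex. Over the tested features at that level these shares were 46.6%, 44.5%, 51.3% and 46.5%, so all but PV cortex lay near them. These shares are descriptions, and their differences between groups were not tested.

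The median levels of the lists also varied over the series. Features called higher had a median log2 CPM of 0.7 in Grik and -1.32 in CamK hippocampus, with -0.11 in SST hippocampus, 0.16 in Scnn, -1.15 in CamK, -0.46 in PV, -0.55 in SST and 0.74 in VIP cortex. Within CamK hippocampus the library medians ran from -1.63 in replicate 4 to -1.08 in replicate 2. Features called lower had a median of -1.19 in Grik and 0.74 in CamK hippocampus, with 0.01 in SST hippocampus, 0.66 in Scnn, 0.87 in CamK, -0.21 in PV, 0.42 in SST and 0.42 in VIP cortex. In all 24 libraries of the other 6 groups, the median of the features called lower was above that of each Grik library. These features were picked as low in Grik, so the selection itself favours this order. In both lists, features of low level can have passed the filter through another group, which favours higher medians there. Over all tested features the medians were 1.1 in Grik and 1.06 in CamK hippocampus and 1.1 to 1.63 in the other groups.

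**Figure D4:**
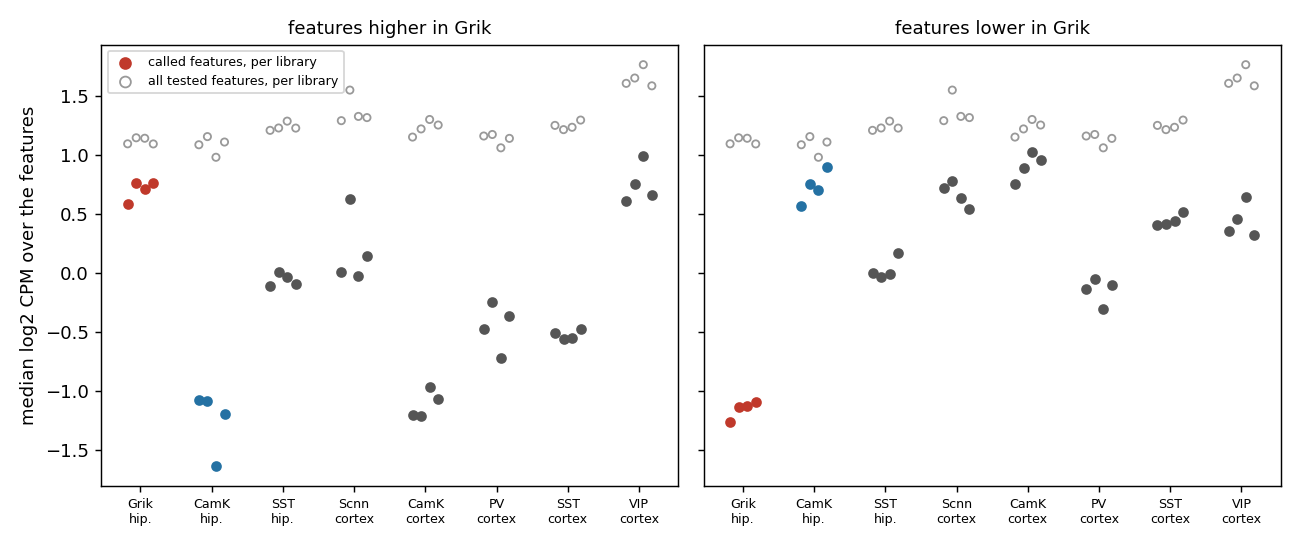
Median log2 CPM, per library, of the features called higher in Grik (left) and lower in Grik (right) as filled points, with the median of all tested features as open circles, in the 8 groups of the series. CamK cortex lies near CamK hippocampus in both panels, and the Grik libraries lie below all others on the right. The selection itself sets the Grik and CamK hippocampus points apart and favours low Grik points on the right. In both panels, features of low level can have passed the filter through another group.

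Scnn and CamK neurons of the cortex form the other pair of excitatory populations in the series and share no library with the hippocampal pair. Scnn is known in this field as a mark of excitatory neurons enriched in layer 4, a narrower class beside the broad CamK population, as Grik is in the hippocampus. Of the features called higher in Grik, 775 (45.1%) were also called higher in Scnn than in CamK cortex, where 13.7% of all tested features were, and 178 (10.4%) were called lower, where 5.94% of all tested features were. These 775 are 23.1% of the features called higher in Scnn. Of the features called lower in Grik, 305 (19.4%) were lower and 158 (10.1%) were higher in Scnn. The 305 are 20.9% of the features called lower in Scnn. The filter ran over all 8 groups and kept 24555 features, against 19319 with the 8 compared libraries alone. A feature of low level could thus be tested through its counts in Scnn alone, so these shares describe the overlap and do not test it.

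On the higher side the median and the shares called in Scnn varied with the level of the features. The median log2 fold change of Scnn against CamK cortex over the features called higher in Grik was 1.07 (1.05 with groups at 0 set to the floor), against -0.01 over all tested features. For the 877 of them with a mean of at least 1 CPM it was 0.40, against -0.14 over all tested features at that level. Of these 877, 37.5% were called higher in Scnn, against 5.35% of the tested features at that level, and 14.9% lower, against 6.59%. For the 285 with at least 10 CPM it was -0.18, against -0.17, with 65 (22.8%) called higher and 59 (20.7%) called lower in Scnn. At that level 1.94% of all tested features were called higher in Scnn and 4.83% lower. Abundant features called higher in Grik were therefore called between Scnn and CamK cortex more often than tested features at large, in both directions. For the abundant features called lower, 20 (6.41%) were higher and 66 (21.2%) were lower in Scnn. These too were called more often than tested features at that level in both directions, so this is not particular to the features called higher. Across features the log2 fold changes of the pairs had a Pearson correlation of 0.22 (Spearman 0.13) over all 24555 and of 0.07 (Spearman -0.16) over the 8974 with at least 10 CPM. Features are not independent replicates, and those of low level share sampling limits. GSMG0038934 and GSMG0023431, given above, also had far higher means in Scnn than in CamK cortex, and each counts as a single feature in these shares.

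**Figure D5:**
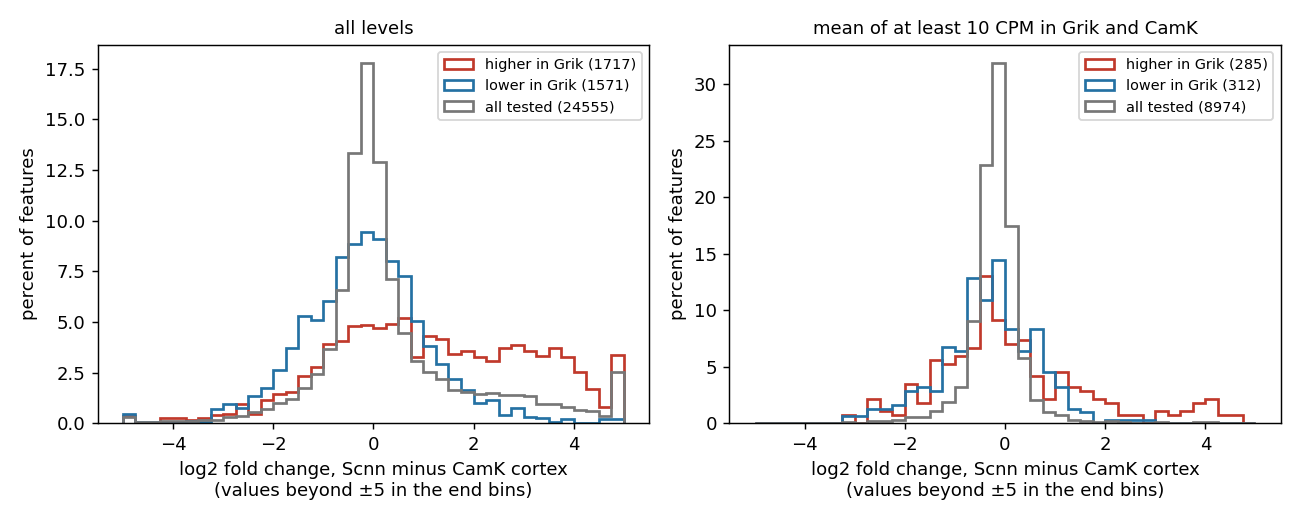
Distribution of the log2 fold change between Scnn and CamK cortex, as percent of features, for features called higher in Grik, features called lower in Grik and all tested features, over all levels (left) and for features averaging 10 CPM or more over the Grik and CamK hippocampus libraries (right). On the left the features called higher in Grik extend to positive values (median 1.07), while on the right their median (-0.18) is close to that of all tested features (-0.17), with wider tails on both sides. Features of low level, on the left only, can have passed the filter through Scnn.

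The lists differed little in the deposited length of their features, which the comparison did not use. The median length was 1842 for features called higher, 1688 for those called lower and 1617 for those not called, and the middle 50% overlapped widely (1053 to 2958, 1002 to 2736 and 945 to 2687). In 4 bins of length with nearly equal numbers of features, the share called higher was 6.23%, 6.07%, 7.45% and 8.22% from the shortest to the longest bin, and the share called lower was 5.76%, 6.61%, 6.68% and 6.54%. The level moved with length as well, with a median of 4.82 CPM in the shortest and 0.999 CPM in the longest bin, and its part in these shares was not tested.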

How the data were processed

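The authors deposited expected counts (read counts that can be fractional) with a column for each library. Whole numbers (within 1e-06) made up 20.1% of the non-zero values. Per the submitters' processing notes, GRCm38, FastQC, Picard, SAMtools and featureCounts were used, with no role or version. No source used here gives the aligner, annotation, counting mode or use of strand, so values of overlapping, antisense or near-identical features are uncertain. Per the labels' protocols, each library started from 50 ng of RNA and a stranded kit selecting polyadenylated RNA. A further 12 columns match no sample of the labels and were not used. The deposited length has no stated unit, and a column of small codes was not used.

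Rounded expected counts were the input of edgeR 4.0.16 (R 4.3.3), with filterByExpr (24555 of 56459 features kept), TMM, and a robust quasi-likelihood fit with 1 coefficient per group over all 32 libraries (24 residual degrees of freedom), with Benjamini-Hochberg adjustment over all tested features. The standard error is the size of the log2 fold change over the square root of F. Log2 CPM used a prior count of 2. SciPy 1.17.1 gave the exact permutation tests. DESeq2 1.42.0 was an alternative, as were other scalings, filters, library sets and thresholds. Named features were the 2 with the largest absolute difference in mean CPM in each direction among called features without overlap. The members, lists and this rule were chosen with earlier results of these data known. The floors cover counting error only, while the standard errors take in the spread between libraries. Same-numbered Grik and CamK libraries did not vary together, so the fit has no replicate block.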

Additional observations from a re-analysis of the deposited data

Results flagged for a closer look

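Of 34 sets of 4 library values examined, 1 held a library far from the others, where chance flags about 1 in 20. GSMG0023431 was at 2422 CPM in Grik hippocampus replicate 6, with 1377 to 1446 CPM in the other Grik libraries. Without that library its log2 fold change was 1.46 and it was still called (edgeR adjusted p = 0.0332, within a range of 0.00882 to 0.0332 over the fits that left out 1 library).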

How the results depend on the processing

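Counts of calls moved mainly with the fold threshold. Without it, 4201 features were higher and 3887 lower in Grik; when a 2-fold change was itself the tested hypothesis (glmTreat), 693 were higher and 756 lower, so the larger side turned. Leaving out 1 library gave 1472 to 1800 higher and 1411 to 1567 lower features; without CamK replicate 4 the larger side also turned (1472 higher, 1508 lower), and for the number of detected features the difference in means became -19.33 without that library, within a range of -19.33 to 94.67, against 47.5. Other scalings, filters, library sets and DESeq2 (1848 higher, 1673 lower) stayed within 1.5 times of the counts given above and kept more features higher than lower. SST hippocampus replicate 1, the deepest library, was left out as a choice made after seeing the data (1762 higher, 1532 lower). The fit with only the 8 compared libraries gave 1416 and 1345. No pairing was seen between libraries with the shared numbers 3, 4 and 5: deviations of same-numbered libraries correlated at -0.009, 0.0342 and -0.0172. This check ran over all tested features, many of them imprecise, so it cannot exclude a pairing. With the replicate block on these 6 libraries 1393 features were higher and 1290 lower, and without it 1427 and 1381. At this depth, features under 0.1 CPM remain imprecise, with a median coefficient of variation of 112% in Grik and 119% in CamK.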

Other observations

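A small set of features switched between near 0 and a clear level among replicates of the same population. A maximum of at least 10 CPM was reached by 9244 features in Grik and 9275 in CamK. Of these, 10 in Grik and 11 in CamK ranged over 10-fold among the 4 libraries. Among the 10 and 11 features, 0 and 2 were called different, numbers too small to set against the 13.4% called of all tested features. In 3 of the features that ranged over 10-fold, the libraries split in the same way. These stood at 14.2 to 34.6 CPM in Grik replicates 5 and 6 and at 10.9 to 39 CPM in CamK replicates 2, 3 and 4. They stood at 0 to 2 counts in Grik replicates 3 and 4 and in CamK replicate 5. These 3 features were chosen after their values were seen. None was called between the populations (edgeR adjusted p = 0.695, 0.87 and 0.783). The split runs across both populations, with 2 of 4 Grik and 3 of 4 CamK libraries at the higher level.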
